A study of Mus musculus with 12 samples.

Results

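The YFP- Ppy+Gcg+ bihormonal cells are islet cells that carried mRNA of both pancreatic polypeptide (Ppy) and glucagon (Gcg) but were sorted as negative for the lineage label of Ppy-expressing cells. UMIs are unique molecular identifiers, which count captured mRNA molecules, and a cell was taken as a member when it held over 24.3 UMIs of Ppy and over 166 of Gcg per 10000 of its UMIs, and no more than 577 of Ins2 and 26.7 of Sst. The level L of a gene in a cell is ln(1 + UMIs per 10000). Cells with L above 3 for Cd74, Col3a1 or Plvap, markers of immune, stromal and endothelial cells, were set aside as non-endocrine. There were 84 Ppy+Gcg+ members among the 5982 cells of the 4 libraries. Experiment 1 gave 45 of them and experiment 2 gave 39. Since Ppy and Gcg chose the cells, the levels of these and the other 5 genes of the rule are described below without a test.

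Islet cells came from Ppy-rtTA; R26-YFP mice of mixed background at 2 months of age, given doxycycline (DOX, 1 mg/ml). By the study's methods DOX was in the drinking water for 2 weeks, and the labels place it 1 month before sampling. Within each of 2 independent experiments, islets of several mice were pooled, dissociated and sorted by FACS, and the YFP+ and YFP- cells were loaded separately for droplet-based single-cell RNA-seq. In these mice the reverse tetracycline transactivator (rtTA) replaces the coding sequence of 1 Ppy allele and is driven by the Ppy locus, and with DOX it switches on a Cre recombinase that removes the stop before a YFP reporter for good. Every cell compared here, labelled or not, therefore comes from animals with 1 inactivated Ppy allele and the same DOX treatment, and no untreated or wild-type library was compared. YFP records Ppy promoter activity during DOX only where the label was switched on, so a YFP- cell is one without the label at sorting and not one without Ppy. The comparison classes were 671 monohormonal Gcg+ cells of the same YFP- libraries (326 and 345), 662 YFP+ Ppy+Gcg+ cells (334 and 328) and 1549 YFP+ monohormonal Ppy+ cells (721 and 828), all by the same thresholds.

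Pancreatic islets hold α-cells, which secrete glucagon, β-cells (insulin), δ-cells (somatostatin) and the rare γ-cells, which secrete pancreatic polypeptide. Ppy belongs to the neuropeptide Y family together with peptide YY (Pyy), a gut and islet hormone that lowers appetite and whose gene lies next to Ppy. α-cells are kept in their identity by transcription factors such as Irx1 and Irx2, and express the thyroxine carrier transthyretin (Ttr) at a high level.

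Ppy and Pyy lie in the same orientation on mouse chromosome 11, Ppy at 102099931 to 102101319 and Pyy at 102106676 to 102107832 (RefSeq, GRCm38.p6), with 5356 bases and 0 annotated genes between them. Gcg lies on chromosome 2 at 62474530 to 62483653. The 250 bases before the start of each gene are shown because Ppy chose the cells and Pyy, as given below, was higher where Ppy was. Capitals mark TATAA on the strand of the gene, the letters of the TATA box that places the start of transcription.
Ppy (chr11:102101320-102101569, minus strand): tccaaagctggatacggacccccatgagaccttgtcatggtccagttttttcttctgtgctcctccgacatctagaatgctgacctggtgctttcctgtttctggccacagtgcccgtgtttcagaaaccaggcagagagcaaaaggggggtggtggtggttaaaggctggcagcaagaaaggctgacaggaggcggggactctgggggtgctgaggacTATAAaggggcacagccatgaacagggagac
Pyy (chr11:102107833-102108082, minus strand): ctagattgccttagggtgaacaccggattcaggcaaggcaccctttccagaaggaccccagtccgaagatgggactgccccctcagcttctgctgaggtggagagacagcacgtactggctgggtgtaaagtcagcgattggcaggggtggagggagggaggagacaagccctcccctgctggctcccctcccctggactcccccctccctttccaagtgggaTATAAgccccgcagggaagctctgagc
Gcg (chr2:62483654-62483903, minus strand): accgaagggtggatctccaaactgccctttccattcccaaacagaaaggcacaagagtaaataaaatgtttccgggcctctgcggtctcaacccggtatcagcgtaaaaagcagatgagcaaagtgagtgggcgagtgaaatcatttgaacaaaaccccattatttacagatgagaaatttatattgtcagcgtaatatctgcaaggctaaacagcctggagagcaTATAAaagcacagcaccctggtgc
TATAA stood at -31 to -27 from the start of Ppy, at -27 to -23 of Pyy and at -24 to -20 of Gcg. Of 32851 windows of this length before mouse genes, 16.0% held TATAA, so that a match describes the letters and not a used site. The transcripts of Ppy and Pyy share no run longer than 10 bases.

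The 4 libraries held 18330975 UMIs in 1495 cells (YFP-, experiment 1), 10683494 in 1689 (YFP-, experiment 2), 11705631 in 1300 (YFP+, experiment 1) and 11523971 in 1498 (YFP+, experiment 2). The 45 members of experiment 1 held 388386 UMIs with a median of 7184 per cell (2989 to 23050) and a median of 1763 genes, and the 39 of experiment 2 held 380580 UMIs with a median of 8107 (2020 to 27957) and 1841 genes. The median UMI number was 0.913 times that of monohormonal Gcg+ cells in experiment 1 and 1.27 times in experiment 2 (mean 1.09 ± 0.255, SD, n = 2). Mitochondrial transcripts made up a median of 3.98 and 2.83% of UMIs in members and 4.07 and 2.97% in monohormonal Gcg+ cells. Of the barcodes, 19 were found in more than 1 library, and 0 of these were members. A nearest-neighbour doublet caller marked 0 members in experiment 1 and 1 in experiment 2.

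Droplets also capture free RNA, which was read from the non-endocrine cells of the same library. In the YFP- libraries, non-endocrine cells had a median L(Ppy) of 0 and 0.679 and a median L(Gcg) of 2.66 and 3.65, at medians of 4659 and 3036 UMIs per cell. Of them 0 of 231 (which allows a share of up to 1.30%, as 3 counts of the total) and 7 of 554 (1.26%, 0.51 to 2.59) were above the Ppy threshold. In the YFP+ libraries the same cells had a median L(Ppy) of 4.32 and 4.67, and 24 of 24 and 81 of 81 were above the threshold, so that in that fraction the Ppy threshold does not separate Ppy-producing cells from cells with free Ppy RNA. Intervals are exact (Clopper-Pearson, 95%), limits for a count of 0 are 3 counts of the total, and both cover counting error only.

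In members, Gcg was the dominant hormone and Ppy the minor one. L(Ppy) ranged from 3.57 to 6.66 with a median of 4.37 in experiment 1 and from 3.233 to 7.43 with a median of 4.60 in experiment 2. L(Gcg) had a median of 7.97 (lowest 7.07) and 7.85 (lowest 6.68), against 8.02 and 8.03 in monohormonal Gcg+ cells. A member held a median of 68 Ppy UMIs in experiment 1 (16 to 875) and 59 in experiment 2 (9 to 2377). The median ratio of Gcg to Ppy UMIs was 34.7 and 32.5, and 0 and 2 members held more Ppy than Gcg UMIs. Over all members of a library, Ppy came to 164 and 249 per 10000 UMIs and Gcg to 2876 and 2753 per 10000. YFP+ Ppy+Gcg+ cells held 1233 and 1384 per 10000 of Ppy and 1534 and 1082 of Gcg, so that the balance of the hormones lay the other way or near even there.

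**Figure D1:**
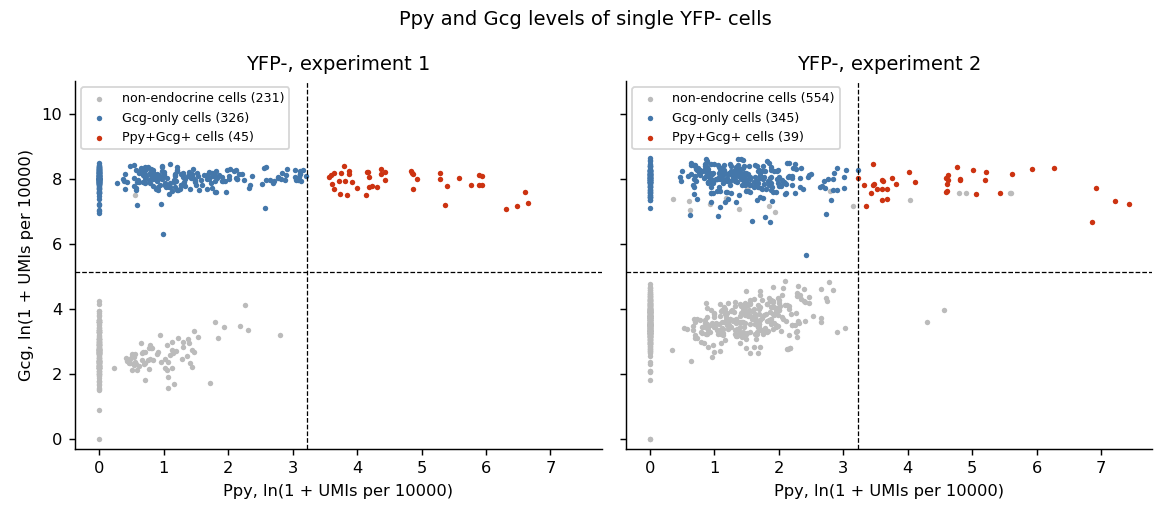
Each point is 1 YFP- cell, with L(Ppy) on the x axis and L(Gcg) on the y axis, both as ln(1 + UMIs per 10000), for experiments 1 and 2. Dashed lines are the thresholds, 24.3 and 166 UMIs per 10000. The 45 and 39 members spread from the Ppy threshold up to 6.66 and 7.43 at the Gcg level of the 326 and 345 monohormonal cells, and grey points are cells with a non-endocrine marker, a few of which also hold Gcg and Ppy.

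No gap separated members from monohormonal Gcg+ cells in experiment 2. The lowest member there was at 3.233 and the highest Gcg-only cell at 3.228, with 14 members within 0.5 above the threshold and 11 Gcg-only cells within 0.5 below it. In experiment 1 the lowest member was at 3.57 and the highest Gcg-only cell at 3.22, with 6 and 19 cells within 0.5 on the respective sides. Ppy UMIs were also found in 203 of 326 (62.3%) and 251 of 345 (72.8%) monohormonal Gcg+ cells, against 72 of 231 (31.2%) and 286 of 554 (51.6%) non-endocrine cells of lower depth. When each cell was thinned to 1000 UMIs, these shares were 16.9 and 25.8% in monohormonal Gcg+ cells and 7.36 and 19.3% in non-endocrine cells.

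Members made up 45 of 371 cells that were Gcg+ or Ppy+Gcg+ in experiment 1 (12.1%, 8.99 to 15.9) and 39 of 384 in experiment 2 (10.2%, 7.32 to 13.6), and the intervals of the experiments overlapped. Counting cells of every hormone combination, 59 of 419 (14.1%) and 82 of 496 (16.5%) Gcg-positive YFP- cells were above the Ppy threshold, as were 93 of 263 (35.4%) and 101 of 301 (33.6%) Sst-positive and 12 of 467 (2.57%) and 12 of 121 (9.92%) Ins2-positive cells. Ppy without Gcg, Ins2 or Sst was found in 2 and 14 YFP- cells. Among all Ppy+ and Ppy+Gcg+ cells, bihormonal cells were thus 45 of 47 (95.7%, 85.5 to 99.5) and 39 of 53 (73.6%, 59.7 to 84.7) in the YFP- fraction and 334 of 1055 (31.7%) and 328 of 1156 (28.4%) in the YFP+ fraction. The sort acts on this contrast directly, since YFP marks cells that used the Ppy promoter during DOX.

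Among members, the level of Pyy went with that of Ppy while that of Gcg did not. Over the members of experiments 1 and 2, L(Ppy) and L(Pyy) had a Pearson r of 0.564 and 0.768 (Spearman rho 0.576 and 0.62, n = 45 and 39 cells of 1 library each). L(Ppy) and L(Gcg) had an r of -0.426 and -0.181 (rho -0.261 and 0.0656), and L(Ppy) and total UMIs an r of 0.00663 and 0.0789. These are descriptions over cells that share a library, and the values per 10000 of a cell add up to a fixed sum. Most members held more Pyy than Ppy UMIs, 37 of 45 and 30 of 39. Summed over members, Pyy UMIs were 2.70 and 1.56 times Ppy UMIs, beside 2.83 and 1.70 times in YFP- Ppy+Sst+ cells, 1.09 and 1.32 times in YFP+ Ppy+Gcg+ cells and 0.970 and 1.10 times in YFP+ monohormonal Ppy+ cells. Ppy chose each of these classes and is the denominator, so the ratios are descriptions.

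Grouping the Gcg+ YFP- cells by their Ppy level showed where within the class these genes differed. In experiment 1, Pyy came to 45.9 per 10000 UMIs in the 123 Gcg-only cells with no Ppy UMI and to 76.6, 79.6 and 138 in those with increasing Ppy below the threshold. In the 20, 11 and 14 members up to 1, 1 to 2 and over 2 natural-log units above the threshold it came to 235, 300 and 816. In experiment 2 the same groups had 48.1, 56.7, 69.2 and 103 below the threshold and 119, 398 and 954 above it (18, 13 and 8 members). These are sums, to which cells rich in Pyy add most. The median cell of the 7 groups had 23.7, 39.2, 41.1, 116, 112, 163 and 574 per 10000 in experiment 1 and 29.9, 35.9, 39.6, 62.8, 93.4, 154 and 966 in experiment 2. The sums were thus higher in each next group, while the median did not differ in that direction across the threshold in experiment 1, and both were higher in Gcg-only cells just below the threshold than in those with no Ppy UMI. Tspan8, a tetraspanin of the cell surface, came to 0.0991, 0.121, 0.342 and 0.220 per 10000 below the threshold and 0.531, 0.548 and 1.17 above it in experiment 1, and to 0.0664, 0.05, 0.079 and 0.325 below it and 0.447, 0.255 and 0.835 above it in experiment 2, on 29 and 18 UMIs in all members. Tspan8 was thus highest in the last group of both experiments, with no even order before it.

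The members with the most Ppy had the lowest levels of Gcg and Slc30a8 of all 7 groups in both experiments, on few cells. Gcg came to 2474 and 2389 per 10000 in the 14 and 8 members with the highest Ppy, against 3225 and 3214 in Gcg-only cells with no Ppy UMI. Ttr came to 197 and 188 per 10000 in the highest group and 322 and 242 in the cells with no Ppy, and in experiment 2 the lowest value, 181, was that of Gcg-only cells just below the threshold. Slc30a8, the zinc transporter of secretory granules, came to 4.93 and 2.39 per 10000 in the highest group (63 and 20 UMIs) against 6.63 and 5.40, and in experiment 1 the group before it was as low, at 4.94. Irx1 and Irx2 came to 0.392 and 0.548 per 10000 there in experiment 1, on 5 and 7 UMIs, and to 0.119 each in experiment 2, on 1 UMI each, too few to place them. Values per 10000 are shares of all UMIs, so that a larger share of Ppy and Pyy lowers that of every other gene.

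**Figure D2:**
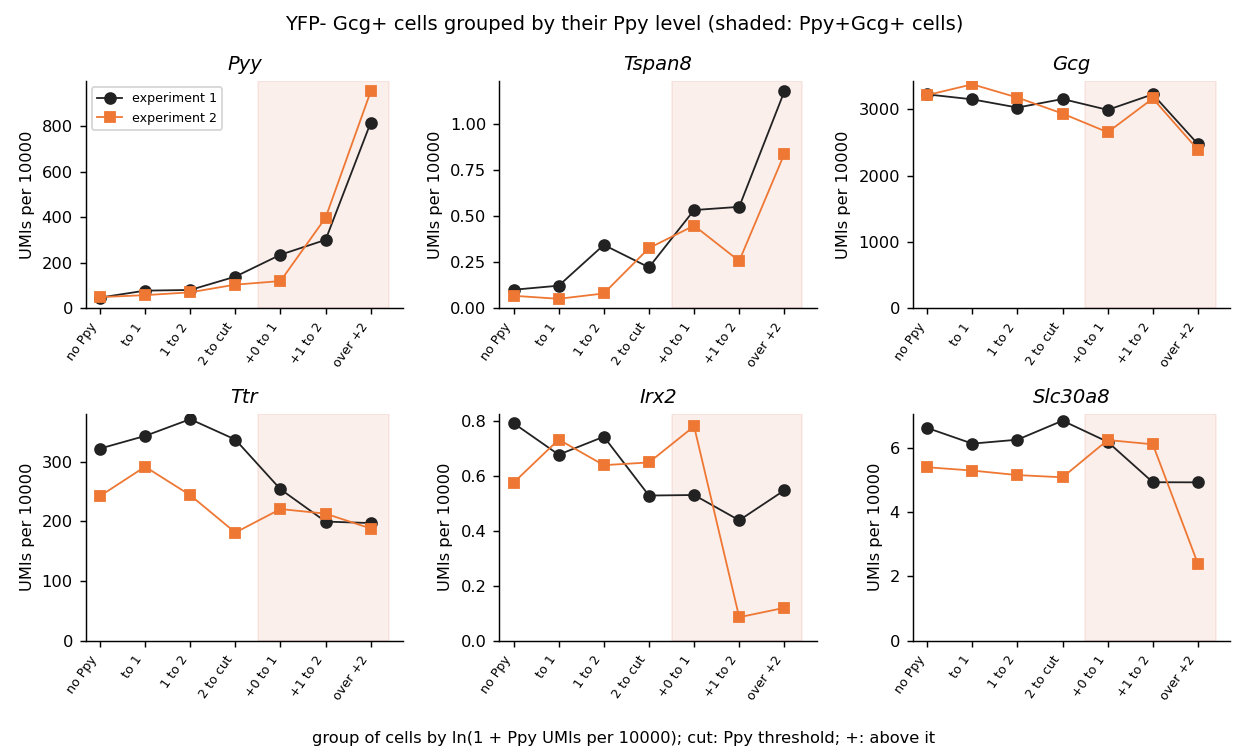
Each panel shows 1 gene in UMIs per 10000 UMIs of all genes (y axis) over YFP- Gcg+ cells grouped by L(Ppy) (x axis), as the sum over the cells of a group, for experiments 1 (circles) and 2 (squares). Shaded groups are the members, at up to 1, 1 to 2 and over 2 above the threshold; Pyy reaches 816 and 954 in the last group, and no error bar is drawn since a group is 1 sum per experiment.

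The first test asked in which genes members differ from the monohormonal Gcg+ cells of the same libraries. UMIs were summed per class and library, and edgeR's quasi-likelihood test was run with the experiment as a block on 18 sums of 9 classes. A gene was called at a Benjamini-Hochberg adjusted p of at most 0.05 and a natural-log fold change over 0.5 (0.721 on the log2 scale). Of 8231 genes tested, 3 were higher and 1 was lower in members (percent called: 0.0486%), and 397 had an unadjusted p under 0.05. Without the block the count was 1, Pyy. DESeq2 called 4 as well, but not the same 4, since Slpi, described below, was not among them. Without the YFP- library of experiment 1 or of experiment 2 the members and the Gcg+ cells were 1 sum each, and 17 and 29 genes were called. Counts were also simulated at this depth, with the same spread for every gene and no difference between experiments or libraries. In these, 19% of true 2-fold and 63% of true 4-fold differences were recovered, and recovery under the uneven spread of the real sums was not tested. The p-values measure the spread left between the 18 sums after class and experiment are fitted, pooled over the 9 classes. The test treats these sums as independent, though they come from only 4 libraries of pooled mice.

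Pyy was the difference that no alternative removed. It stood at 64153 and 56062 CPM (counts scaled to a library of 1e6 UMIs outside the 7 rule genes) in members of experiments 1 and 2 and at 11432 and 9980 in monohormonal Gcg+ cells, so that the classes did not overlap. The log2 fold change was 2.52 (SE 0.22, edgeR adjusted p = 2.93e-07), and it was called under each of 16 alternatives, between 2.25 and 2.80. A Pyy UMI was present in 45 of 45 and 39 of 39 members and also in 320 of 326 and 337 of 345 monohormonal Gcg+ cells and in 124 of 231 and 390 of 554 non-endocrine cells. After thinning to 1000 UMIs these shares were 97.8 and 100.0% in members, 83.1 and 86.1% in monohormonal Gcg+ cells and 16.0 and 36.1% in non-endocrine cells, so that Pyy was above the free RNA in both Gcg+ classes. The member with the most Pyy held 22.3 and 16.9% of the Pyy UMIs of its class.

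Tspan8 was higher as well, at 109 and 68.2 CPM in members and 26.9 and 15.4 in monohormonal Gcg+ cells, with a log2 fold change of 2.08 (SE 0.32, edgeR adjusted p = 0.00391). It was found in 16 of 45 (35.6%) and 14 of 39 (35.9%) members, 39 of 326 (12.0%) and 22 of 345 (6.38%) monohormonal Gcg+ cells and 1 of 231 and 17 of 554 non-endocrine cells. After thinning to 1000 UMIs it was found in 7 of 45 and 0 of 39 members and 5 of 326 and 3 of 345 monohormonal Gcg+ cells. The call was lost without the block, after thinning and without the YFP- library of experiment 1. Folr1, a folate receptor that is high in γ-cells, stood at 82.4 and 3.79 CPM in members and 26.4 and 1.65 in monohormonal Gcg+ cells, with a log2 fold change of 1.63 (SE 0.51) that was not called (edgeR adjusted p = 0.948). Its level in every class was many times lower in experiment 2 than in experiment 1.

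Clusterin (Clu), a secreted chaperone, was the gene with a lower value, at 41.2 and 56.9 CPM in members against 122 and 201 in monohormonal Gcg+ cells (log2 fold change -1.67, SE 0.32, edgeR adjusted p = 0.0467). Single cells carried much of the higher level: 1 monohormonal Gcg+ cell held 96 of 236 Clu UMIs in experiment 1 and 1 held 90 of 365 in experiment 2. A Clu UMI was found in 7 of 45 and 11 of 39 members and 70 of 326 and 73 of 345 monohormonal Gcg+ cells, so that the share of cells was not lower in members in both experiments. The call was lost under 5 of 16 alternatives, among them that without the YFP- library of experiment 2 (-1.57). With hormone thresholds lowered by 0.5 the value itself was -0.15, and with cells thinned to 1000 UMIs it was -0.66. Spp1, osteopontin, which is also a duct marker, had a lower value in members as well, at 7.49 and 18.9 CPM against 107 and 232 (-3.63, SE 0.75), and was not called (edgeR adjusted p = 0.0843). A single monohormonal Gcg+ cell held 176 of its 206 UMIs in experiment 1 and 133 of 422 in experiment 2. The 8 duct markers summed to 1.13 and 1.81 UMIs per 10000 in members and 1.58 and 3.27 in monohormonal Gcg+ cells (0.92 and 2.73 without the highest cell), and their part in the difference of Clu was not tested. Slpi, a secreted protease inhibitor, was called higher at 0 and 299 CPM against 3.10 and 12.1, but all 79 of its UMIs in members came from 1 cell of experiment 2, which is described below. With hormone thresholds raised by 0.5 that cell fell out, and the value of Slpi turned to -3.26.

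No gene of the α-cell list passed the test against monohormonal Gcg+ cells. Of 17 tested, 0 were called by edgeR or DESeq2, 4 had an unadjusted p under 0.05, and the median log2 fold change was -0.228 beside -0.0146 over all genes. Ttr stood at 32310 and 30411 CPM in members and 50560 and 36302 in monohormonal Gcg+ cells (log2 fold change -0.44, SE 0.24). Irx2 stood at 74.9 and 60.6 CPM against 104 and 96.3 (-0.54, SE 0.24) and the amino acid transporter Slc38a5 at 44.9 and 45.5 against 95.7 and 66.0 (-0.81, SE 0.29). In these 3 genes both members' sums lay below both sums of the monohormonal cells. Irx1 stood at 56.2 and 53.1 CPM against 57.9 and 53.4 (0.00, SE 0.31). Slc7a2, a transporter of cationic amino acids, stood at 356 and 334 CPM against 409 and 401 (-0.20, SE 0.18), and the prohormone convertase Pcsk2, which cuts proglucagon to glucagon, at 9419 and 6887 against 10940 and 7778 (-0.17, SE 0.13). An adjusted p over 0.05 does not show that these levels are alike, and changes up to about 2 SE on either side of each value are compatible with the data.

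Other lists held few calls against monohormonal Gcg+ cells. Of 16 γ-cell genes tested, 2 were higher (Pyy and Tspan8), with a median of 0.0969. Among the remaining γ-cell genes, the transcription factor Etv1 stood at 663 and 622 CPM against 667 and 714, Meis2 at 277 and 288 against 270 and 278, and Fev, a transcription factor, at 11.23 and 34.1 against 33.6 and 40.7. Over 9 lists with no call (α-, β- and δ-cell genes, secretory granule, endocrine transcription factors, receptors and channels, immediate early genes, folding in the endoplasmic reticulum, proliferation), 0 of 125 entries were called by edgeR or DESeq2. An unadjusted p under 0.05 was found for 13 of these entries, beside 397 of all 8231 genes, which is a smaller share. Of 15 secretory granule genes 9 had a positive value, with a median of 0.0871. Chga stood at 4601 and 3256 CPM against 4389 and 2690 (log2 fold change 0.18, SE 0.17), Scg2 at 520 and 838 against 463 and 581 (0.41, SE 0.24) and Gnas, the stimulatory G protein subunit, at 3358 and 3642 against 3728 and 3632 (-0.04, SE 0.12). The prohormone convertase Pcsk1 had the value furthest from 0 in this list, at 0 and 22.7 CPM against 1.55 and 1.65 (2.76, SE 0.95), and was not called (edgeR adjusted p = 0.948). Among 18 receptor and channel genes tested, 6 had a positive value, with a median of -0.0598. The fatty acid receptors Ffar1 (0.68, SE 0.34) and Ffar4 (0.72, SE 0.39) and the sodium channel Scn3a (0.68, SE 0.22) were among the positive ones and were not called.

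**Figure D3:**
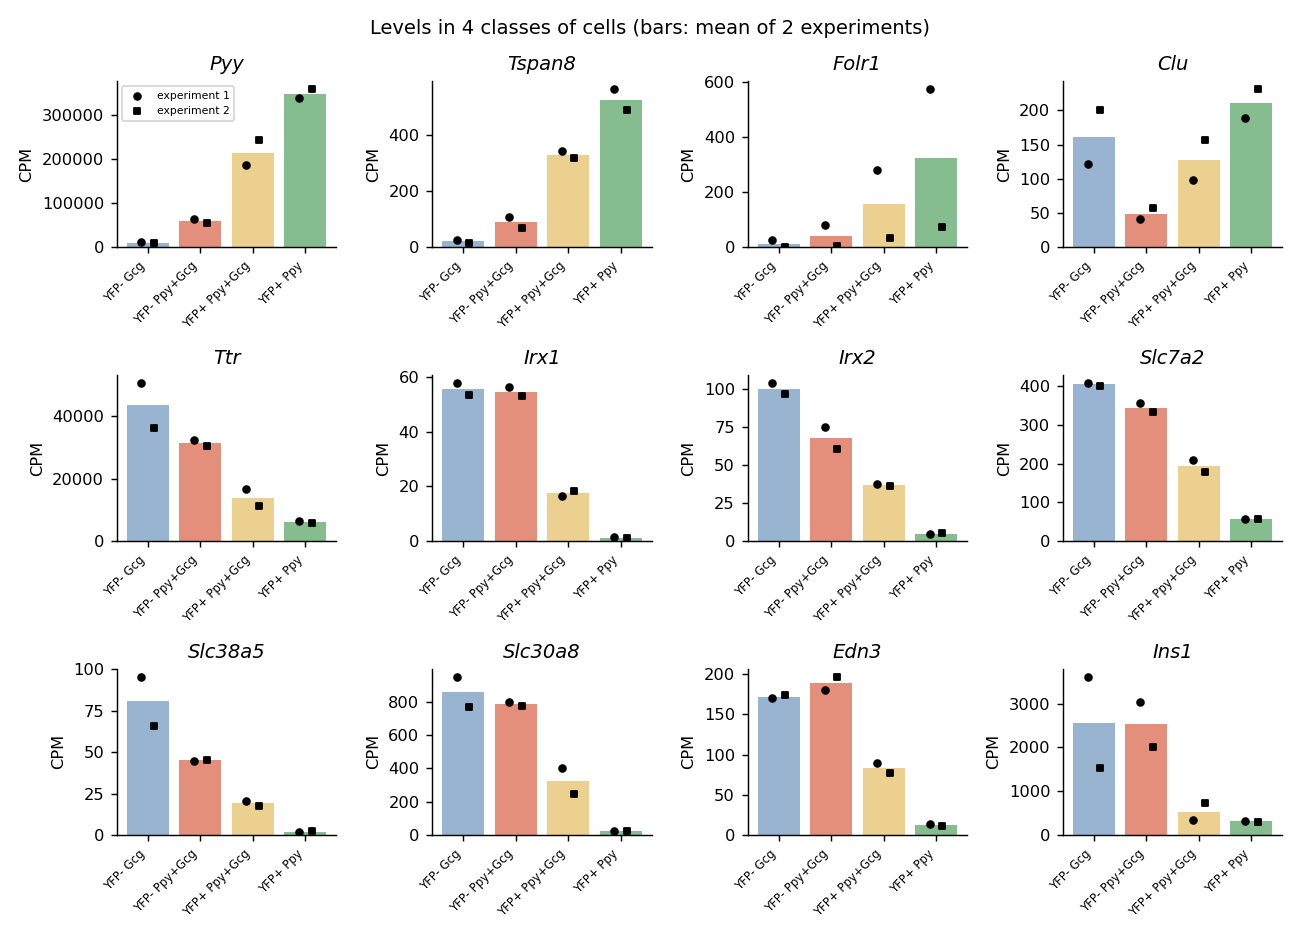
Each panel gives the level of 1 gene in CPM (y axis, from 0) in YFP- monohormonal Gcg+ cells, YFP- Ppy+Gcg+ cells, YFP+ Ppy+Gcg+ cells and YFP+ monohormonal Ppy+ cells (x axis). Bars are the mean of 2 experiments and points the experiments. Members lie between the outer classes for Pyy and Tspan8 and beside the monohormonal Gcg+ cells for Irx1, Slc7a2 and Slc30a8. For Ttr, Irx2 and Slc38a5 they lie below the monohormonal Gcg+ cells and above both YFP+ classes.

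The second comparison set the members beside YFP+ cells that pass the same hormone rule, which asks how labelled and unlabelled Ppy+Gcg+ cells differ. Sort fraction and library cannot be told apart here, because each fraction of an experiment was 1 library. The classes also differ in the hormones of the rule. Ppy came to 164 and 249 per 10000 UMIs in members against 1233 and 1384 in YFP+ Ppy+Gcg+ cells. Gcg came to 2876 and 2753 against 1534 and 1082. The part of this balance in the differences given here was not tested. Of 8231 genes, 34 were higher and 14 lower in members (percent called: 0.583%). Without the block 7 were called, all of them among the 48, and DESeq2 called 21. Leaving out the YFP- library of experiment 1 gave 81 and leaving out the YFP+ library of experiment 2 gave 20, and upper-quartile scaling gave 32 higher and 21 lower.

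Of 16 γ-cell genes, 3 were lower in members than in YFP+ Ppy+Gcg+ cells (Pyy, Tspan8 and Folr1), 0 were higher and 13 were not called, with 5 positive values and a median log2 fold change of -0.459 beside 0.000302 over all genes. Pyy stood at 64153 and 56062 CPM against 186100 and 243940 (log2 fold change -2.06, SE 0.22, edgeR adjusted p = 2.27e-06). Tspan8 stood at 109 and 68.2 CPM against 342 and 318 (-2.11, SE 0.25, edgeR adjusted p = 8.64e-06), and Folr1 at 82.4 and 3.79 against 280 and 35.5 (-2.12, SE 0.38, edgeR adjusted p = 0.00458). In each of them the members of an experiment were below the YFP+ cells of that experiment. Folr1 was not called under 4 alternatives, among them that without the YFP- library of experiment 1. Clu was lower at -1.58 (SE 0.32), the small nucleolar RNA host gene Snhg18 at -1.36 (SE 0.26) and the N-myristoyltransferase Nmt1 at -0.99 (SE 0.21), calls that 5, 5 and 8 alternatives lost, among them that without the YFP+ library of experiment 2. With hormone thresholds lowered by 0.5 the value of Clu was -0.15.

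Of 17 α-cell genes, 1 was higher in members and 13 had a positive value, with a median log2 fold change of 0.631. Ttr, at 32310 and 30411 CPM against 16642 and 11090 (0.98, SE 0.24), had an edgeR adjusted p of 0.0575 and was not called, nor was Irx1 at 56.2 and 53.1 against 16.7 and 18.2 (1.44, SE 0.36, edgeR adjusted p = 0.0742). Slc30a8 was higher at 797 and 773 CPM against 404 and 249 (1.09, SE 0.19, edgeR adjusted p = 0.00248). Edn3, the vasoactive peptide endothelin 3, was higher at 180 and 197 CPM against 89.5 and 77.6 (0.97, SE 0.21), as were Trim35, an E3 ubiquitin ligase (0.94), the kinase Map3k15 (1.00), the crystallin Cryba2 (0.84) and Tomm20, an import receptor of mitochondria (0.78). The calls of Edn3 and Map3k15 were each lost under 6 alternatives, that of Cryba2 under 7 and that of Tomm20 under 11, and all 4, like those of Slc30a8 and Trim35, were lost without the YFP+ library of experiment 2.

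Ins1 was higher in members at 3040 and 2024 CPM against 339 and 735 (log2 fold change 1.92, SE 0.36, edgeR adjusted p = 0.00646), a call lost without the block and with hormone thresholds raised by 0.5. The value was 1.04 without the YFP+ library of experiment 1 and 3.18 without that of experiment 2. In the YFP- libraries, however, an Ins1 UMI was found in 231 of 231 and 519 of 554 non-endocrine cells, against 11 of 24 and 15 of 81 in the YFP+ libraries. Ins1 in monohormonal Gcg+ cells of the YFP- libraries, 3621 and 1520 CPM, lay on either side of the members. Insulin RNA of other cells thus moved with the sort fraction, and its part in this difference was not tested. Among the other lists, edgeR called 0 of 15 granule genes (5 with an unadjusted p under 0.05 and 1 called by DESeq2), 0 of 12 transcription factors (2 and 0), 0 of 10 δ-cell genes (1 and 0), 0 of 18 receptors and channels (0 and 0), 0 of 13 immediate early genes (2 and 0), 0 of 16 folding genes (3 and 0) and 0 of 6 proliferation genes (0 and 0).

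The third comparison, with YFP+ monohormonal Ppy+ cells, gave 391 called genes, 230 higher and 161 lower in members (percent called: 4.75%). Without the block 227 were called, without the YFP- library of experiment 2 205 and without the YFP+ library of experiment 2 249, and upper-quartile scaling gave 189 higher and 217 lower. It shares the members' sums with the other comparisons, so the values stand side by side and no overlap is drawn. Of 17 α-cell genes, 9 were higher and 1 lower, with a median log2 fold change of 1.89 beside 0.012 over all genes. Irx1 stood at 56.2 and 53.1 CPM against 1.53 and 1.15 (log2 fold change 4.80, SE 0.48, edgeR adjusted p = 7.48e-07). Irx2 was higher at 3.26 (SE 0.34), Slc38a5 at 3.97 (SE 0.46), Slc7a2 at 2.11 (SE 0.19) and Ttr at 1.89 (SE 0.24). Rgs4, a brake on G protein signalling, was higher at 1.04, Nxph1 at 2.79 and Mamld1 at 2.18. The vitamin D binding protein Gc was lower at -0.96 (SE 0.24).

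Against YFP+ monohormonal Ppy+ cells, 3 of 16 γ-cell genes were lower and 0 higher, with 4 positive values and a median of -0.44. Pyy stood at 64153 and 56062 CPM against 338130 and 359410 (log2 fold change -3.00, SE 0.22, edgeR adjusted p = 1.85e-09), Tspan8 at 109 and 68.2 against 563 and 488 (-3.04, SE 0.24, edgeR adjusted p = 4.01e-09) and Folr1 at 82.4 and 3.79 against 576 and 75.5 (-3.48, SE 0.36, edgeR adjusted p = 3.76e-07). Such a share of Pyy lowers the CPM of every other gene there, while the fold changes were scaled by TMM. Spp1 stood at 7.49 and 18.9 CPM against 170 and 223 (-4.45, SE 0.69). Of 5 duct markers tested, Spp1 was the 1 called lower, and 2 were called higher. These were Onecut2, at 11.2 and 45.5 CPM against 4.82 and 3.46, and Tff3, at 0 and 75.8 against 0.438 and 0.923. The part of duct RNA in the other differences was not tested. Cd9, another tetraspanin, was lower at -1.73 (SE 0.31) and the phospholipase D family member Pld3 at -1.57 (SE 0.25).

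Secretory granule genes went both ways against monohormonal Ppy+ cells, with 3 of 15 higher and 3 lower and a median log2 fold change of 0.00914. Gnas stood at 3358 and 3642 CPM against 824 and 879 (1.57, SE 0.12, edgeR adjusted p = 3.17e-09), and Pcsk1n, an inhibitor of prohormone convertase, at 666 and 1296 against 318 and 405 (0.93, SE 0.16). Scg2, a secretogranin, stood at 520 and 838 CPM against 1224 and 1571 (-1.51, SE 0.24) and Chgb at 449 and 474 against 786 and 707 (-1.16, SE 0.19). Of 18 β-cell genes, 5 were higher, among them Slc30a8 at 797 and 773 CPM against 22.3 and 22.6 (4.66, SE 0.22, edgeR adjusted p = 4.12e-13) and the glucose-6-phosphatase G6pc2 (3.77, SE 0.61), and Iapp was lower (-0.97, SE 0.18). Other genes with large differences were Higd1a, a mitochondrial protein of the hypoxia response, at 281 and 269 CPM against 18.8 and 16.4 (3.49), Edn3 at 180 and 197 against 13.8 and 11.1 (3.45), the kinases Wnk3 (2.93) and Map3k15 (2.84) and uridine phosphorylase Upp1 (2.26). Genes of other cell types moved with these. S100a8, a neutrophil gene, stood at 3.74 and 212 CPM against 0 and 0, and the immunoglobulin genes Igha (3.40), Jchain (3.38) and Igkc (3.10) and the insulin gene Ins1 (2.52, at 3040 and 2024 CPM against 330 and 298) were higher. Of 9 immune markers tested, 6 were higher and 9 had a positive value, and a single member held most of the immunoglobulin UMIs of experiment 2, as given below. Their part in the other differences was not tested. Of 12 endocrine transcription factors 0 were called by edgeR or DESeq2 and 4 had an unadjusted p under 0.05, with Pax6 at 464 and 402 CPM against 407 and 360 (-0.29, SE 0.13) and Isl1 at 371 and 322 against 246 and 227 (0.08, SE 0.15). Nhs of the δ-cell list (1 of 10) and the folding genes Dnajb9 and Sdf2l1 (2 of 16) were lower, while 0 of 18 receptors and channels, 0 of 13 immediate early genes and 0 of 6 proliferation genes were called by edgeR or DESeq2, with 5, 5 and 2 at an unadjusted p under 0.05.

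The transgene transcripts were near absent from members. A YFP UMI was found in 1 of 45 and 3 of 39 members and an rtTA UMI in 1 of 45 and 2 of 39, with 7 members holding either. YFP stood at 3.74 and 11.4 CPM against 232 and 178 in YFP+ Ppy+Gcg+ cells (log2 fold change -4.95, SE 0.44, edgeR adjusted p = 1.99e-07), where 240 of 334 and 191 of 328 cells held a UMI. rtTA, which is transcribed from the targeted Ppy allele, stood at 7.49 and 7.58 CPM against 319 and 147 (-5.10, SE 0.41, edgeR adjusted p = 4.61e-08). YFP chose the fractions at sorting, so its difference is a check of the labels. In monohormonal Gcg+ cells of the YFP- libraries 0 of 326 and 0 of 345 held an rtTA UMI, which allows shares of up to 0.92 and 0.87% (3 counts of the total), and the edgeR adjusted p of members against them was 0.211. Members held 2 and 2 rtTA UMIs beside 6353 and 9489 Ppy UMIs. YFP+ Ppy+Gcg+ cells held 767 and 331 beside 410090 and 415166. The rtTA UMIs of members are few and Ppy chose both classes, so a difference in rtTA per Ppy was not tested.

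Transcripts of other cell types were unevenly spread over members, with single cells high in immune and in acinar markers in experiment 2. Over 11 immune markers, members held 4.2 and 59.9 UMIs per 10000 with a median per cell of 3.73 and 5.69, monohormonal Gcg+ cells 4.57 and 12.7 (medians 4.19 and 6.44) and YFP+ Ppy+Gcg+ cells 0.319 and 0.320. The most abundant was Igkc, the immunoglobulin κ chain, and Ptprc, the common leukocyte antigen, was at 0 in members of experiment 1. In experiment 2, 1 member held 1850 per 10000 of these markers, with 1450 of the 1568 Igkc UMIs, 791 of 846 Igha UMIs, 593 of 606 Jchain UMIs and all 79 Slpi UMIs of the class, among 11147 UMIs in all. Its L(Ppy) was 3.36 and its L(Gcg) 7.16, and the doublet caller did not mark it. Without this cell the members of experiment 2 held 5.93 per 10000. With all cells over 100 per 10000 left out, a choice made after the data had been seen, 3 genes were called against monohormonal Gcg+ cells, namely Pyy (2.49), Tspan8 (2.06) and Clu (-1.74), 48 against YFP+ Ppy+Gcg+ cells and 389 against YFP+ monohormonal Ppy+ cells.

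Against YFP+ Ppy+Gcg+ cells 4 of 9 immune markers tested were higher (H2-Ab1, Igkc, Jchain and Lyz2), and 9 of 9 had a positive value. S100a8, a neutrophil gene, stood at 3.74 and 212 CPM in members and at 0 in both sums of YFP+ Ppy+Gcg+ cells. In experiment 2 its UMIs were found in 28 of 39 members, 203 of 345 monohormonal Gcg+ cells and 273 of 554 non-endocrine cells of the same library. Acinar enzyme genes, 12 of 13 of which were detected with Amy2a5 at 0, summed to 3.42 and 6.49 per 10000 in members (2.99 in experiment 2 without the highest cell, which held 71.8), 30.5 and 2.77 in monohormonal Gcg+ cells (10.1 in experiment 1 without the highest cell) and 1.5 and 1.45 in YFP+ Ppy+Gcg+ cells. Of the endothelial markers, Flt1, Kdr and Cdh5 were at 0 in members of both experiments, and of the stromal markers Pdgfrb and Lum. Against monohormonal Gcg+ cells of the same libraries, edgeR and DESeq2 called 0 of 9 immune, 0 of 12 acinar, 0 of 5 ductal and 0 of 3 stromal markers, with 1, 1, 2 and 0 at an unadjusted p under 0.05. RNA of other cells thus moved with the sort fraction, and its part in the differences from YFP+ cells was not tested.

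Whether the difference between the fractions is the same in another bihormonal class was tested with Ppy+Sst+ cells, 78 and 59 in the YFP- and 102 and 159 in the YFP+ libraries. This test was added after the first comparisons had been seen. The YFP- minus YFP+ difference in Ppy+Gcg+ cells minus that in Ppy+Sst+ cells was called at an edgeR adjusted p of at most 0.05 in 15 of 8231 genes. For Pyy the difference between fractions was -2.06 in Ppy+Gcg+ and -2.11 in Ppy+Sst+ cells, and these did not differ by the test (0.06, SE 0.29, edgeR adjusted p = 0.997). Ins1 was higher in the YFP- fraction of both classes, at 1.92 and 2.18 (difference -0.26, SE 0.50). Ttr was at 0.98 in Ppy+Gcg+ cells and -2.54 in Ppy+Sst+ cells, where it stood at 470 and 709 CPM in the YFP- and 2563 and 3203 in the YFP+ fraction (difference 3.52, SE 0.36, edgeR adjusted p = 7.14e-06). Slc7a2 was at 0.63 and -2.08 (2.71, SE 0.54), Clu at -1.58 and 0.85 (-2.43, SE 0.38) and Tspan8 at -2.11 and -0.52 (-1.59, SE 0.33). Within Ppy+Sst+ cells alone, Ttr was lower in the YFP- fraction (edgeR adjusted p = 2.89e-06), and in Ppy+Gcg+ cells it was not called.

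**Figure D4:**
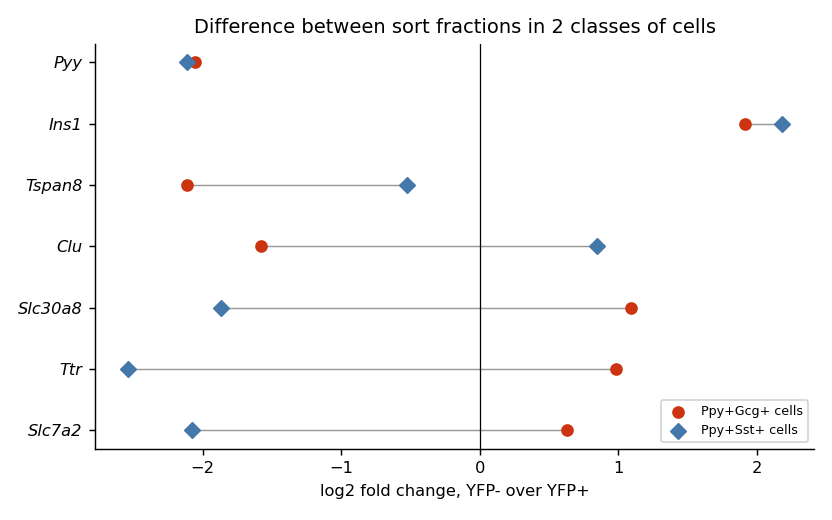
Log2 fold change of YFP- over YFP+ cells (x axis) for 7 genes (y axis) in Ppy+Gcg+ cells (circles) and Ppy+Sst+ cells (diamonds), from edgeR on sums of 2 experiments. The circles and diamonds lie together for Pyy (-2.06 and -2.11) and apart for Ttr (0.98 and -2.54) and Slc7a2 (0.63 and -2.08); the differences for Slc30a8 and Ins1 were not called.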

How the data were processed

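The authors pooled islets of several mice per experiment, sorted YFP+ and YFP- cells, prepared droplet-based 3′ libraries and counted UMIs with Cell Ranger on mm10 with YFP and rtTA added; the submitters' notes also name Seurat and R 3.6.1. The deposited values are raw UMI counts per gene and cell for 31055 genes, and the deposited matrices already hold the cells that passed the study's limits on UMIs and mitochondrial share (the lowest totals were 1016, 1001, 1281 and 1020 UMIs). No further cell filter was applied here. A bulk table of other samples was not used.

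Cells were classed by the hormone thresholds above, and counts were summed per class and library. The 7 genes of the rule were left out of library sizes and tests. edgeR 4.0.16 (R 4.3.3) was run with filterByExpr, TMM and the quasi-likelihood test, with 9 classes and the experiment as a block. The block rests on the design: YFP+ and YFP- cells of an experiment came from the same mice, and deviations of the members' sums from their class mean had a correlation of 0.339, 0.218 and 0.212 with those of the 3 classes compared. DESeq2 1.42.0, other scaling, filters, thresholds, samples and thinning to 1000 UMIs were alternatives. Doublets were kept, and cells marked at 2% per experiment by a nearest-neighbour caller were left out as an alternative. Leaving out immune-rich cells and the test against Ppy+Sst+ cells were chosen after seeing the data. The test was checked on simulated counts for 7645 genes.

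The members and the gene lists were chosen with earlier results of these data known. Besides list genes, up to 12 genes per direction and comparison were named, those with the largest log2 fold change among called genes that moved the same way in both experiments with at least 100 CPM in the higher class. Slpi was named outside this rule, after its values were seen. Some listed genes are counted in the lists but not reported here by name. Python 3.11.15, numpy 2.4.6, scipy 1.17.1, pandas 2.3.3, scikit-learn 1.9.0 and matplotlib 3.10.9 were used.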

Additional observations from a re-analysis of the deposited data

Results flagged for a closer look

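In 4 named genes the difference between the YFP- and YFP+ fractions was not the same in Ppy+Gcg+ as in Ppy+Sst+ cells, by a test of that difference in edgeR (15 of 8231 genes at an adjusted p of at most 0.05, 572 at an unadjusted p under 0.05). The difference was 3.52 on the log2 scale for Ttr (SE 0.36, edgeR adjusted p = 7.14e-06) and 2.71 for Slc7a2 (SE 0.54, edgeR adjusted p = 0.0295), both α-cell genes and both higher in Ppy+Gcg+ cells. It was -2.43 for Clu (SE 0.38, edgeR adjusted p = 0.00244) and -1.59 for Tspan8 (SE 0.33, edgeR adjusted p = 0.0424). Within each class, fraction and library cannot be told apart. Groups of 2 experiments are too small to ask whether a single sample stands apart.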

How the results depend on the processing

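Each of 3 counts of called genes was recomputed under 16 alternatives, 1 of them chosen after seeing the data. Against monohormonal Gcg+ cells (4 called), 1 was called with no replicate block, 12 with only both classes in the fit, 34 with no filter on low counts, 7 without marked doublets, 2 with thresholds raised by 0.5 and 1 with cells thinned to 1000 UMIs, and leaving out 1 library gave 5 to 29. Against YFP+ Ppy+Gcg+ cells (48), 7 were called with no replicate block, 21 by DESeq2, 101 with no filter, 29 with raised and 77 with lowered thresholds and 8 after thinning, and leaving out 1 library gave 20 to 81. Against YFP+ monohormonal Ppy+ cells (391), 227 were called with no replicate block, 254 with raised thresholds and 49 after thinning, and leaving out 1 library gave 205 to 336. Thinning left 2443 genes to test, and leaving out a library left a class with 1 sum, which is assumed to vary like the others. The share of members (11.1%) was 8.87% with raised and 14.7% with lowered thresholds. Of 552 pairs of a named gene and an alternative, 477 kept the call and direction, 73 lost the call, for causes that were not tested, and 2 changed direction, Slpi against monohormonal Gcg+ cells (-3.26, raised thresholds) and Irx2 against YFP+ monohormonal Ppy+ cells (-3.38, thinned), neither with a call. The raised Ppy threshold left out the 1 member with Slpi UMIs, and thinning left 0 of 45 and 0 of 39 members with an Irx2 UMI. DESeq2 gave no adjusted p for 3 further pairs. With 45 and 39 members, genes of few UMIs cannot be placed.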
